A study of Mus musculus with 12 samples.

Results

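The 46 genes described here encode proteins of the lysosome and of autophagy, and they were taken as a listed set from the 25514 genes that the files of 12 RNA-seq libraries could be mapped to. Each gene was followed by its transcript with the highest total count, and all 46 were among the 12971 genes with enough counts to be tested. The cells were conditionally immortalized proximal tubule (PT) cells from male mice, and all 4 groups carried H2ts6, the heat-labile T antigen of the Immorto-mouse, which IFNγ drives and which is switched off before an experiment. TβRII flox/flox PT cells had the genotype H2ts6;Tgfbr2fl/fl with both floxed alleles of Tgfbr2, the gene of the type II TGF-β receptor, intact. TβRII-/- PT cells had the genotype H2ts6;Tgfbr2-/- and were made from such floxed cells by adenoviral Cre in culture. Each genotype was sequenced untreated, in its normal culture medium, and after 24 h of H2O2 in serum-free medium, with 3 libraries per group. The dose of H2O2 is 200 mM on the sample labels and the same figure in μM in the study's methods. Because the treated cells also lacked serum, the effects of H2O2 and of serum withdrawal cannot be told apart. Each genotype was 1 cell line, so that the deletion and anything else in which the pair of lines differs cannot be told apart either, and a p value between genotypes reflects only how much the libraries of the pair spread. Nothing in the labels says that libraries of a group came from separate cultures, and their spread may be technical.

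Lysosomes are acidic organelles that break down proteins, glycans, glycogen and lipids delivered by endocytosis or by autophagy. In autophagy a double membrane encloses cytoplasm or a damaged organelle, is decorated with lipid-linked proteins of the Atg8 family, and fuses with the lysosome. Proximal tubule cells take up filtered protein by endocytosis and are rich in lysosomes. The factors of the MiT/TFE family (TFEB, TFE3 and MITF) are known to bind the sequence CACGTG near the start of many lysosomal genes once they enter the nucleus, a step that depends on phosphorylation rather than on the amount of their mRNA.

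Gene counts summed to between 15870155 and 20857618 per library, and normalized counts below are scaled to a library of 17351835 counts. Tgfbr2 itself was counted in every library, with 7032 to 8791 counts before normalization in untreated TβRII flox/flox cells and 6485 to 6895 in untreated TβRII-/- cells. With H2O2 it had 11960 to 13474 and 7156 to 9299 counts. The counts were thus lower but far from 0 in the libraries labelled TβRII-/-, and counts of a whole transcript do not show whether the floxed part was removed. Of 10 proximal tubule markers 6 were tested. Lrp2 and Aqp1 made up most of their summed level, with means of 17280 and 7103 in untreated TβRII flox/flox cells. Slc22a6 was at 0 in every library, and Slc34a1, Slc22a8 and Hnf4a had at most 2 counts in any. Slc5a2 and Ggt1 had means of 14.8 and 75.8 in untreated TβRII flox/flox cells and of 0 and 7.61 in untreated TβRII-/- cells. The summed level of the proximal tubule markers was between 21977 and 27976 normalized counts in untreated TβRII flox/flox cells and between 15044 and 16071 in untreated TβRII-/- cells. The summed level of 6 epithelial markers, Cdh16 and Pax8 among them, was between 17564 and 19092 in the former and between 37232 and 40332 in the latter. Its largest part was Cdh16, with means of 10306 and 21439, while Cdh1 had means of 1.80 and 1111 and Epcam of 0.371 and 664. Macrophages are also rich in lysosomes. Of 10 macrophage markers 1 was tested, Csf1r, and the defining markers Adgre1 and Tyrobp were at 0 in every library. The summed level of the macrophage list was between 725 and 966 normalized counts in all libraries. Csf1r made up nearly all of it, with group means between 719 and 898. Replicate 3 of untreated TβRII flox/flox cells had the lowest normalized count of its group for 23 of the 23 membrane proteins, proteases, hydrolases and their helpers listed here, with a median of 88.1% of the group mean. Many of the counts of genes by role, list or promoter that rest on this group are therefore also given without that library.

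The first question was how lysosomal and autophagy genes responded to H2O2 in cells that have the receptor. In TβRII flox/flox cells, 24 of the 46 genes were higher with H2O2 and 5 were lower at an adjusted p under 0.05 (quasi-likelihood test of edgeR, Benjamini-Hochberg adjustment over all genes tested). Of all genes tested, 41.6% were called at this limit, 21% being higher and 20.5% lower. The median log2 fold change was 0.191 over the 46 genes and 0.007 over all genes tested. The rise lay in the content and membrane of the lysosome: 22 of its 23 genes rose and 0 fell, with log2 fold changes between 0.18 and 0.89 and a median of 0.485. Of the 15 autophagy genes 1 rose and 5 fell, with a median of -0.116. None of the 3 MiT/TFE genes and 1 of the 5 V-ATPase genes passed the test. With a second limit that the study used, a fold change of at least 1.5 and an unadjusted p under 0.01, 6 of the 46 genes were higher and 0 lower, beside 5.13% and 2.44% of all genes (7.56% together). Libraries of whole cultures measure RNA per total RNA, so that fewer cells of a type and less RNA per cell cannot be told apart. Without untreated replicate 3, 23 of the 46 genes were higher and 4 lower. The summed proximal tubule markers were between 30863 and 33722 normalized counts with H2O2 against 21977 to 27976, and their part in these results was not tested. Within that list the mean of Aqp1 went from 7103 to 14611, that of Lrp2 was 17280 and 17634, and those of Cubn and Ggt1 were 123 and 75.8 untreated and 95.6 and 21.2 with H2O2.

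**Figure D1:**
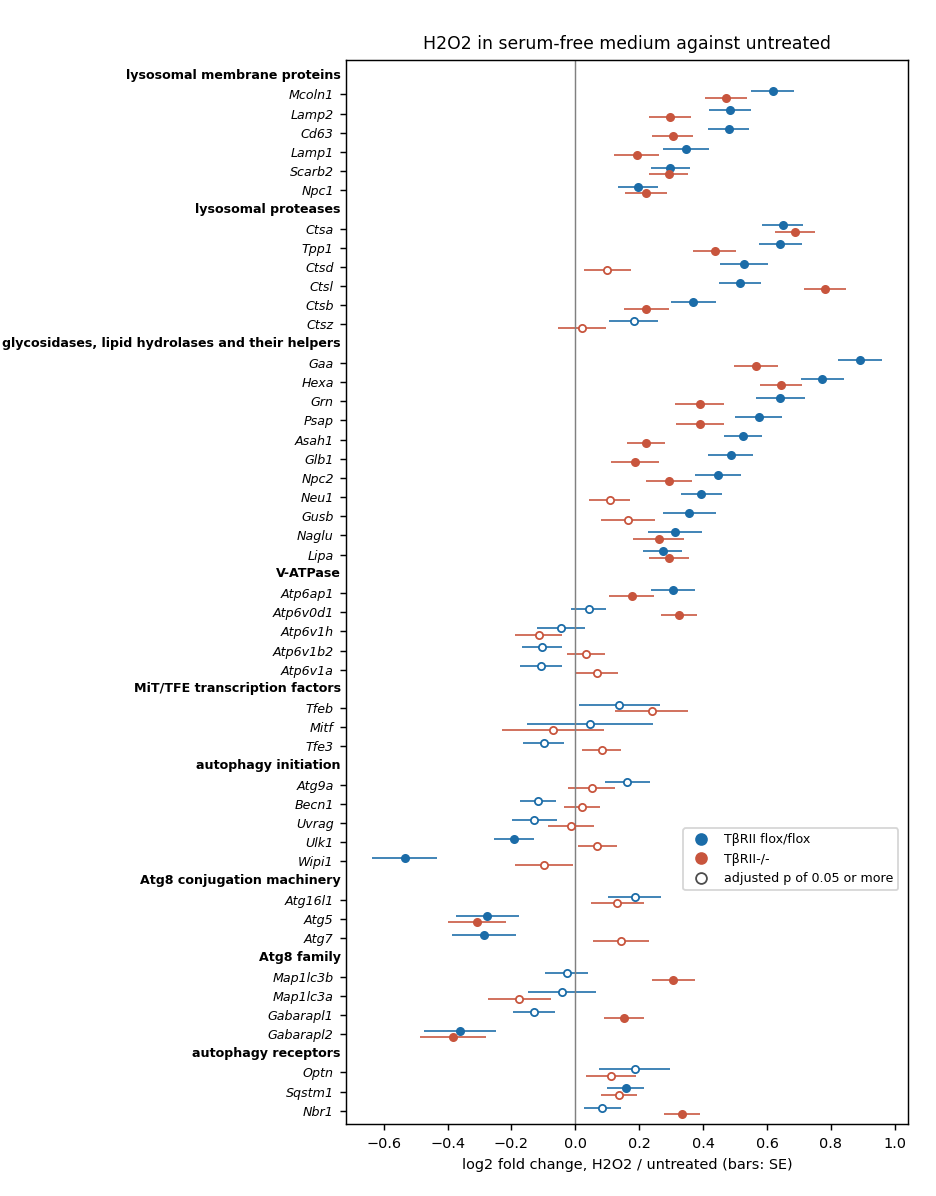
Log2 fold changes with H2O2 against untreated cells for the 46 genes, sorted by role, in TβRII flox/flox (blue) and TβRII-/- (red) cells. Points are edgeR estimates, bars are standard errors, and open points did not pass an adjusted p of 0.05. Membrane proteins, proteases and hydrolases lie to the right of 0 in both genotypes, with values up to 0.89, whereas autophagy genes lie on either side of 0, between -0.53 and 0.33.

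The hydrolases that digest glycans and lipids, together with their helpers, rose in 11 of 11 cases in TβRII flox/flox cells. Gaa, the acid α-glucosidase that digests glycogen (ENSMUST00000106259, chromosome 11 from 119267963 to 119285458 in GRCm38.p6), had 3115, 2903 and 2491 normalized counts in the 3 untreated libraries and 5217, 5555 and 5014 in the 3 with H2O2. Every treated library was above every untreated one, and the log2 fold change was 0.89 ± 0.07 (SE; adjusted p = 5.42e-12), the highest of the 46. Hexa, the α subunit of the β-hexosaminidase that trims gangliosides, went from 2030.4, 2218 and 1809 to 3305, 3646 and 3400.3. Its groups did not overlap either, and its log2 fold change was 0.77 ± 0.07 (SE). Grn, the precursor of the granulins, rose by 0.64 on the log2 scale and Psap, the precursor of the saposins that present lipids to hydrolases, by 0.57. Psap had 17671, 16981 and 13709.5 normalized counts untreated and 24176, 24980.1 and 22827 with H2O2, and the lowest of these values was that of the untreated replicate 3 noted above. The ceramidase Asah1 (0.53), the β-galactosidase Glb1 (0.49), the cholesterol carrier Npc2 (0.45), the sialidase Neu1 (0.39), the β-glucuronidase Gusb (0.36), the heparan sulfate hydrolase Naglu (0.31) and the lipase Lipa (0.27) completed the group, each given as a log2 fold change.

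Of the 6 proteases, 5 rose in TβRII flox/flox cells. Ctsa, a carboxypeptidase that also protects the sialidase and the β-galactosidase, had 4190.2, 4166 and 3542 normalized counts untreated and 6096, 6392 and 6164 with H2O2. The groups did not overlap, and the log2 fold change was 0.65 ± 0.06 (SE; adjusted p = 1.25e-09). The tripeptidyl peptidase Tpp1 rose by 0.64 on the log2 scale, the aspartic protease Ctsd by 0.53 and the cysteine proteases Ctsl and Ctsb by 0.51 and 0.37. The cysteine carboxypeptidase Ctsz did not pass the test, with 2746 ± 427 and 3115 ± 226 normalized counts (SD, n = 3). All 6 membrane proteins rose. Mcoln1, a calcium channel of the lysosomal membrane, had 1578, 1511 and 1395 normalized counts untreated and 2170.1, 2393 and 2316 with H2O2, with no overlap and a log2 fold change of 0.62 ± 0.07 (SE). Lamp2, one of the abundant glycoproteins that line the membrane, had 8826, 8911 and 7379.6 untreated and 11295, 11920.4 and 11943 treated, again without overlap (0.49 on the log2 scale). The tetraspanin Cd63 rose by 0.48, Lamp1 by 0.35, Scarb2, the carrier of the glucocerebrosidase, by 0.30 and the cholesterol exporter Npc1 by 0.20. Without the untreated replicate 3, 21 of these 23 lysosomal genes rose and their median log2 fold change was 0.424 instead of 0.485. The rise of Npc1 was no longer called without that library, without untreated replicate 2 or without replicate 2 of the H2O2 group (adjusted p between 0.0544 and 0.0943).

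In TβRII-/- cells H2O2 was followed by a rise of the same kind of genes. Of the 46 genes 24 were higher and 2 were lower, beside 20.5% and 19.1% of all genes tested (39.6% together), and the median log2 fold change was 0.181 against 0.018 over all genes. Of the 23 lysosomal content and membrane genes 19 rose and 0 fell, with a median of 0.293. All 6 membrane proteins, 4 of 6 proteases and 9 of 11 hydrolases and helpers rose. Here Ctsl led, with 4137, 4203 and 3909 normalized counts untreated and 6768, 7098 and 7189 with H2O2. No treated library was as low as an untreated one, and the log2 fold change was 0.78 ± 0.07 (SE; adjusted p = 5.94e-11). Ctsa had 5485, 5502 and 5227 untreated and 8721, 8400.3 and 9001 with H2O2, a log2 fold change of 0.69 ± 0.06 (SE), and its groups were also apart. Hexa followed with 0.64, Gaa with 0.57, Mcoln1 with 0.47 and Tpp1 with 0.44. Ctsd did not pass, with 27190.4, 27274 and 25066 normalized counts untreated and 28505, 27633 and 29131 with H2O2, and neither did Ctsz (3554 ± 105 and 3604 ± 133, SD, n = 3), Neu1 (3237 ± 86.0 and 3486 ± 156) or Gusb (730.3 ± 60.7 and 819 ± 40.7). At a fold change of at least 1.5 and an unadjusted p under 0.01, 3 of the 46 genes were higher and 0 lower, beside 4.25% and 3.52% of all genes (7.77% together). The calls of Lamp1, Glb1, Naglu and Ctsb, with log2 fold changes of 0.19, 0.19, 0.26 and 0.22, were each lost without a single library, with adjusted p values between 0.0592 and 0.187. This held for Lamp1 with any of the 6 libraries left out, for Glb1 with replicate 1 or 3 of either group, for Naglu with untreated replicate 2 or treated replicate 1, and for Ctsb with treated replicate 3.

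**Figure D2:**
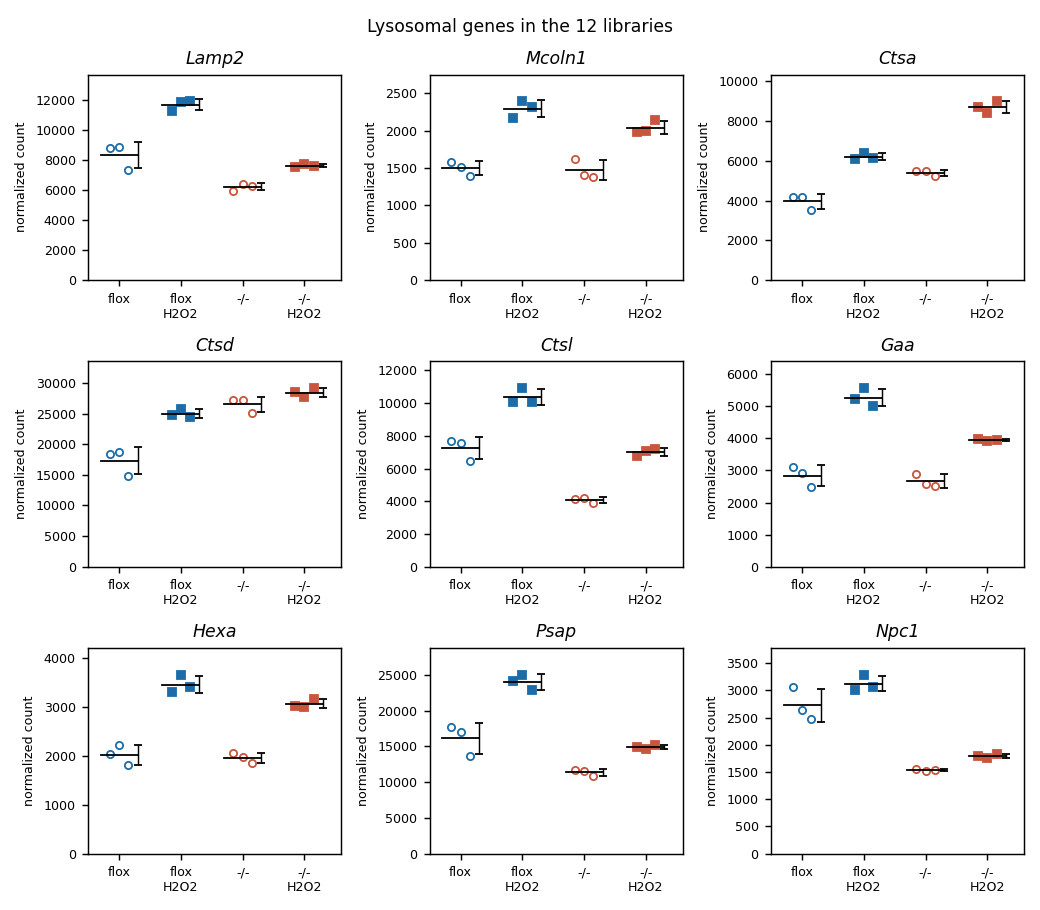
Normalized counts of 9 lysosomal genes in each of the 12 libraries, for TβRII flox/flox (blue) and TβRII-/- (red) cells, untreated (open circles) and with H2O2 (filled squares). Horizontal lines are group means with bars of 1 SD (n = 3), and every axis starts at 0. Gaa and Hexa are higher with H2O2 in both genotypes without overlap, while Ctsd in TβRII-/- cells starts at 25066 to 27274 normalized counts and reaches 27633 to 29131.

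The proton pump and the transcription factors moved less than the lysosomal content and membrane genes. Their median log2 fold changes were -0.045 and 0.046 in TβRII flox/flox cells and 0.067 and 0.083 in TβRII-/- cells. Of the 5 V-ATPase genes, which acidify the lysosome, only the accessory subunit Atp6ap1 rose in TβRII flox/flox cells (log2 fold change 0.31), and Atp6ap1 (0.18) and the membrane sector subunit Atp6v0d1 (0.32) rose in TβRII-/- cells. The call of Atp6ap1 in TβRII-/- cells was lost without untreated replicate 1 or 3 or treated replicate 1 or 3 (adjusted p between 0.0943 and 0.174). The catalytic sector subunits Atp6v1a, Atp6v1b2 and Atp6v1h passed in neither genotype and had means of 5107, 1461 and 621 normalized counts in untreated TβRII flox/flox cells and 4741, 1358 and 602 with H2O2. Tfeb had 165, 168 and 184 normalized counts in untreated TβRII flox/flox cells and 232, 186 and 148 with H2O2. These libraries overlapped, and the log2 fold change was 0.14 ± 0.13 (SE; adjusted p = 0.404). In TβRII-/- cells Tfeb had 232, 203 and 236 untreated and 270.5, 264 and 258 with H2O2. There the groups did not overlap, and the log2 fold change of 0.24 ± 0.11 (SE) had an adjusted p of 0.0937. For Tfe3 the log2 fold changes were -0.10 and 0.08 (adjusted p = 0.212 and 0.29), and for Mitf 0.05 and -0.07 (adjusted p = 0.875 and 0.757). None of the 3 factors was called in either genotype in the fits without 1 library.

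Of the 15 autophagy genes 1 rose and 5 fell in TβRII flox/flox cells, and 3 rose and 2 fell in TβRII-/- cells. Of all genes tested, 21% rose and 20.5% fell in the former, and 20.5% rose and 19.1% fell in the latter. In TβRII flox/flox cells Wipi1, which reads the phosphoinositide made at the forming autophagosome, fell from 284, 263 and 269 to 201, 187 and 174 normalized counts. The groups were apart, and the log2 fold change was -0.53 ± 0.10 (SE; adjusted p = 9.2e-05). Gabarapl2, an Atg8 protein (log2 fold change -0.36), Atg7, the activating enzyme of Atg8 conjugation (-0.29), Atg5, part of the conjugating complex (-0.28), and the initiating kinase Ulk1 (-0.19) also fell. Only Wipi1 kept its call in every fit without 1 library. Without H2O2-treated replicate 3 the fallen autophagy genes numbered 1 instead of 5, and without treated replicate 2 they numbered 3. Without untreated replicate 1, 3 autophagy genes rose instead of 1. That library also decided the calls of Atg7 and Ulk1, untreated replicate 2 that of Atg5, untreated replicate 3 that of Gabarapl2 and treated replicate 1 that of Ulk1, with adjusted p values between 0.0603 and 0.206 over all these losses. The 1 autophagy gene that rose was Sqstm1, the receptor p62, with 3943, 3988 and 4050.1 normalized counts untreated and 4742, 4251 and 4374 with H2O2. The groups did not overlap, the log2 fold change was 0.16 ± 0.06 (SE; adjusted p = 0.0278), and the adjusted p was 0.142 without treated replicate 1, 0.0657 without a filter on low counts and 0.0889 when only the groups compared were fitted.

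In TβRII-/- cells Map1lc3b, the gene of LC3B, rose from 1309, 1427 and 1323 to 1794, 1654 and 1572 normalized counts with H2O2, with no overlap and a log2 fold change of 0.31 ± 0.07 (SE; adjusted p = 0.000503). In TβRII flox/flox cells it had 1854, 2137 and 1969 untreated and 2097, 1814 and 1933 with H2O2, groups that overlapped (-0.03 on the log2 scale, adjusted p = 0.771). The receptor Nbr1 rose by 0.33 in TβRII-/- cells and Gabarapl1 by 0.15, a call that was lost without any 1 of the 3 untreated replicates or treated replicates 1 and 2 (adjusted p between 0.0604 and 0.287). Atg5 and Gabarapl2 fell there, with log2 fold changes of -0.31 and -0.38. Gabarapl2 had 230.4, 273 and 293 normalized counts in untreated TβRII flox/flox cells and 231, 198 and 188 with H2O2, and 337, 360.1 and 304 against 253, 281 and 229.7 in TβRII-/- cells. The treated and untreated libraries of Gabarapl2 overlapped slightly in TβRII flox/flox cells and not in TβRII-/- cells. Map1lc3a did not pass in either genotype, with log2 fold changes of -0.04 and -0.18 (adjusted p = 0.78 and 0.165). Sqstm1 had 4050.2, 4208 and 3998 normalized counts untreated and 4561, 4522 and 4387 with H2O2 in TβRII-/- cells, a log2 fold change of 0.14 ± 0.06 (SE) that missed the limit (adjusted p = 0.0583). Beside these, Atg9a, Atg16l1, Becn1, Uvrag and Optn passed in neither genotype, with means of 1225 and 1372, 468 and 532, 1572 and 1451, 1091 and 998, and 166 and 189 normalized counts in TβRII flox/flox cells without and with H2O2.

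The promoters of the 46 genes were searched for the element that the MiT/TFE factors bind. Windows from 250 bases before to 50 bases after annotated starts were taken from RefSeq (GRCm38.p6), which held 46 windows for 38 of the 46 genes. CACGTG, a palindrome that reads the same on both strands, was in 12 of the 46 windows (26.1%) and in 7.15% of all 32851 windows. All windows covered 27025 genes, whether or not they were tested here, and the share among tested genes alone was not computed. Among windows of lysosomal genes, V-ATPase included, it was in 10 of 25 (40%), and among windows of autophagy and MiT/TFE genes in 2 of 21 (9.52%). The longer form GTCACGTG was searched on both strands and always overlaps a CACGTG. It was in 8 windows (17.4%) beside 2.25% of all windows. TCACGTGA, which overlaps in the same way, was in 5 (10.9%) beside 0.974%. The palindrome that extends GTCACGTG to the same bases on both strands was also searched. It was in 0 of the 46 windows beside 0.326% of all windows. At so low a share, its absence from 46 windows does not tell the sets apart. The stretches below carry the element upstream of the annotated start of their gene or, for Atp6v0d1, across it. They are shown because they place it in genes that rose with H2O2 in TβRII flox/flox cells and, for contrast, in Atp6v0d1, which passed the test in TβRII-/- cells but not in TβRII flox/flox cells, and in Atg5, which fell. Capitals mark CACGTG, and all are written 5′ to 3′ along the gene.
Lamp1, chr8:13159078-13159160, plus strand: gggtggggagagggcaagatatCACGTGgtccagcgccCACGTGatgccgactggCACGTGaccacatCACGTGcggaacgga
Mcoln1, chr8:3500426-3500501, plus strand: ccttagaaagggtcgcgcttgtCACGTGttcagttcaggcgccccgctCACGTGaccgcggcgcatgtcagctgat
Ctsd, chr7:142388045-142388077, minus strand: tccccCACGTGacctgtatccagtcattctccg
Ctsd, chr7:142387898-142387947, minus strand: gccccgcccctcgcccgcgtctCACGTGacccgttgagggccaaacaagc
Gaa, chr11:119267801-119267850, plus strand: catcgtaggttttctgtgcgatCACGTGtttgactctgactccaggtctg
Glb1, chr9:114401008-114401057, plus strand: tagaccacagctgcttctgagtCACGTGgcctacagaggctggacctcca
Naglu, chr11:101069999-101070048, plus strand: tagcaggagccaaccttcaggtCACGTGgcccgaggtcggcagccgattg
Atp6v0d1, chr8:105566062-105566089, minus strand: aagagccaggccctactgcggtCACGTG
Atg5, chr10:44268303-44268338, plus strand: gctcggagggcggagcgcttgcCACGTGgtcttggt
Lamp1 carried 4 copies within 83 bases and Mcoln1 2 within 76. Of the 10 lysosomal genes with CACGTG in a window, 8 rose with H2O2 in TβRII flox/flox cells, with a median log2 fold change of 0.5. Of the 13 lysosomal genes with a window but without CACGTG, 12 rose, with a median of 0.448. Without untreated replicate 3 the counts were still 8 of 10 and 12 of 13, with medians of 0.439 and 0.353. Both autophagy genes with the element, Atg5 and Atg7, fell in TβRII flox/flox cells, and each call was lost in 3 of the fits without 1 library. In TβRII-/- cells Atg5 fell and Atg7 did not pass the test (log2 fold change 0.14). There 8 of the 10 lysosomal genes with CACGTG and 10 of the 13 without it rose, both with a median of 0.293.

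The second question was how the genotypes differed without treatment. In untreated cells 17 of the 46 genes were higher in TβRII-/- than in TβRII flox/flox cells and 16 were lower, beside 33.3% and 31.4% of all genes tested (64.7% together). At a fold change of at least 1.5 and an unadjusted p under 0.01 the counts were 4 and 2, beside 15.7% and 11.3% (27% together). The median log2 fold change was 0.019 over the 46 genes and 0.008 over all genes, and the roles went in different directions. Without replicate 3 of TβRII flox/flox cells 14 genes were higher and 18 lower, and the median was -0.042. Of the 23 lysosomal content and membrane genes 5 were higher and 11 lower. The 3 MiT/TFE genes were all higher. Of the 15 autophagy genes 8 were higher and 3 lower, or 7 and 3 without replicate 3 of TβRII flox/flox cells. The summed proximal tubule and epithelial markers given above also differed between the genotypes, and their part in these differences was not tested.

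Among the autophagy genes a receptor and an Atg8 gene stood out by size. Optn, the gene of optineurin, which brings ubiquitin-marked mitochondria and other cargo to autophagosomes (ENSMUST00000114996, chromosome 2 from 5020521 to 5064399 in GRCm38.p6), had 170.4, 141 and 186 normalized counts in untreated TβRII flox/flox cells and 589, 645 and 673 in untreated TβRII-/- cells. With H2O2 it had 198, 168 and 202 against 665, 687 and 710.0. The genotypes were far apart in both conditions, and the log2 fold changes were 1.94 ± 0.09 and 1.86 ± 0.09 (SE; adjusted p = 3.9e-18 and 4.11e-18). Gabarapl1 (ENSMUST00000032264, chromosome 6 from 129533192 to 129542331) had 1635, 1857 and 1828 normalized counts in untreated TβRII flox/flox cells and 4373, 4379.9 and 4525 in untreated TβRII-/- cells. With H2O2 it had 1728, 1619.7 and 1513 against 4767, 5282 and 4709.6, again with no overlap between genotypes. Its log2 fold changes were 1.32 ± 0.07 untreated and 1.60 ± 0.07 with H2O2 (SE; adjusted p = 4.48e-18 and 2.59e-20). Cell lines can differ over stretches of a chromosome. The 24 tested genes nearest to Optn on chromosome 2 had a median log2 fold change of 0.47 between untreated genotypes and 0.49 with H2O2, and those nearest to Gabarapl1 on chromosome 6 had medians of 0.09 and -0.11. For some of the other genes the neighbours had medians near the gene's own value in untreated cells. Among these were Map1lc3b on chromosome 8 (-0.55, neighbours -0.54) and, on chromosome 2, Ctsa (0.45, neighbours 0.41), Ctsz (0.37, neighbours 0.46) and Map1lc3a (0.27, neighbours 0.28). Tfe3 (0.16, neighbours 0.11), Naglu (0.23, neighbours 0.15) and Ulk1 (0.17, neighbours 0.27) also lay near theirs. With H2O2 the values were -0.22 and -0.48 for Map1lc3b, 0.49 and 0.43 for Ctsa, 0.21 and 0.43 for Ctsz and 0.14 and 0.29 for Map1lc3a. For Tfe3, Naglu and Ulk1 they were 0.35 and 0.04, 0.18 and 0.09, and 0.43 and 0.20. For further called genes the neighbours had a median of the opposite sign in untreated cells. Among these were Lipa (-0.49, neighbours 0.55), Ctsd (0.61, neighbours -0.145) and Atg7 (0.49, neighbours -0.25). Gabarapl2 (0.33, neighbours -0.33) and Asah1 (0.16, neighbours -0.34) were others. The part of neighbouring genes in these differences was not tested.

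The other Atg8 genes differed in direction between untreated genotypes. Map1lc3b was lower in TβRII-/- cells, with 1309, 1427 and 1323 normalized counts against 1854, 2137 and 1969, no overlap and a log2 fold change of -0.55 ± 0.07 (SE; adjusted p = 1.41e-08). Gabarapl2 was higher by 0.33 on the log2 scale, a call lost without replicate 1 of TβRII flox/flox cells (adjusted p = 0.064). Map1lc3a had 244, 234 and 304 normalized counts in TβRII flox/flox and 335, 311 and 298 in TβRII-/- cells, which overlapped. Its log2 fold change of 0.27 ± 0.10 (SE; adjusted p = 0.0226) was no longer called without replicate 1 or 2 of the former or replicate 1 of the latter (adjusted p between 0.0902 and 0.141). Atg7 was higher by 0.49, Atg5 by 0.37, Wipi1 by 0.29 and Ulk1 by 0.17. The call of Ulk1 was lost without replicate 2 or 3 of TβRII flox/flox or replicate 1 of TβRII-/- cells (adjusted p between 0.0648 and 0.124). Atg9a, the membrane protein that seeds autophagosomes, and Uvrag, a partner of Becn1 in the lipid kinase complex, were lower, with log2 fold changes of -0.53 and -0.40. Sqstm1 had nearly equal values in the untreated genotypes, as listed above, with a log2 fold change of 0.03 ± 0.06 (SE; adjusted p = 0.637). Becn1, Atg16l1 and Nbr1 did not pass either, with means of 1572 and 1453, 468 and 464, and 1927 and 1936 normalized counts in TβRII flox/flox and TβRII-/- cells.

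**Figure D3:**
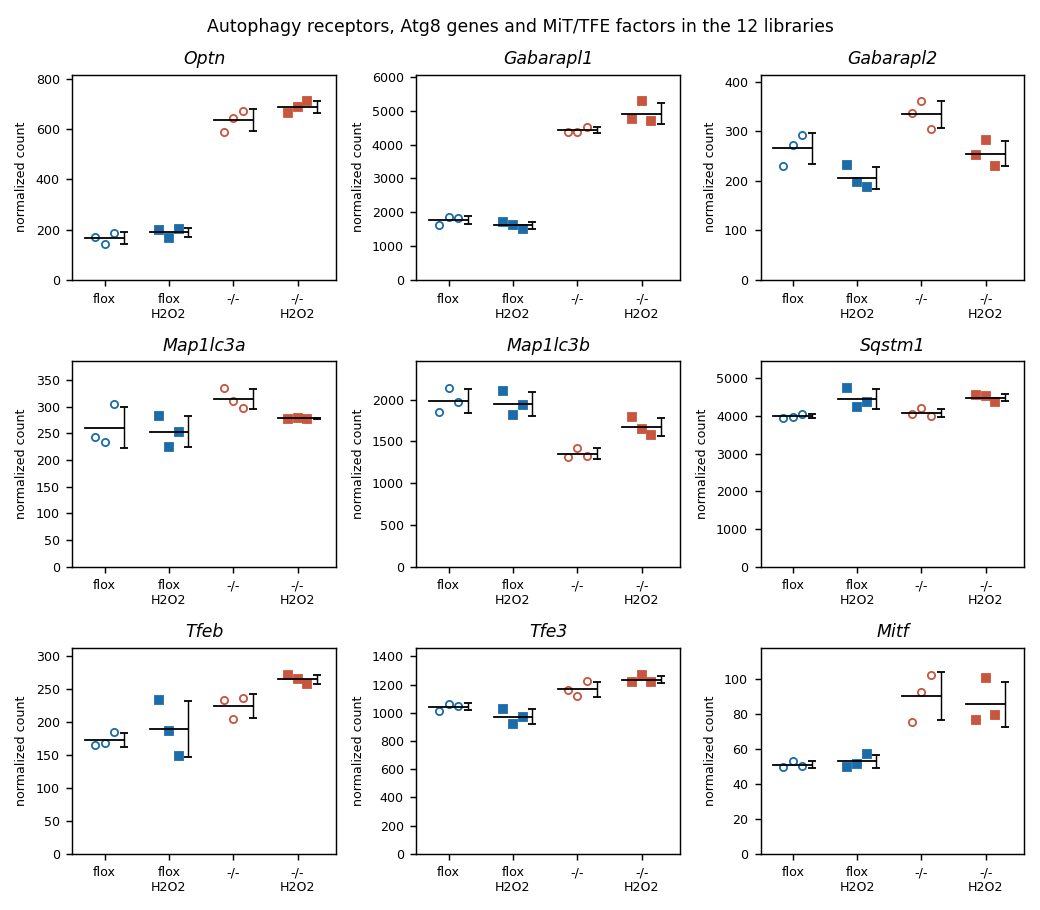
Normalized counts of 9 autophagy and MiT/TFE genes in each of the 12 libraries, for TβRII flox/flox (blue) and TβRII-/- (red) cells, untreated (open circles) and with H2O2 (filled squares). Horizontal lines are group means with bars of 1 SD (n = 3), and every axis starts at 0. Optn and Gabarapl1 separate the genotypes in both conditions, with means of 166 against 636 and 1773 against 4426 in untreated cells, whereas Sqstm1 lies between 3943 and 4742 in all libraries.

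All 3 MiT/TFE genes were higher in untreated TβRII-/- cells. Mitf had 49.4, 53.4 and 50.5 normalized counts in TβRII flox/flox cells and 75.3, 92.9 and 102 in TβRII-/- cells, with no overlap and a log2 fold change of 0.82 ± 0.18 (SE; adjusted p = 0.000163). Tfeb had 165, 168 and 184 against 232, 203 and 236, groups that were also apart, and a log2 fold change of 0.38 ± 0.12 (SE; adjusted p = 0.00792). Tfe3 had 1016, 1063 and 1051 normalized counts and 1161, 1119 and 1223, a smaller difference of 0.16 ± 0.06 on the log2 scale (SE; adjusted p = 0.022). The call of Tfe3 was lost without replicate 1 of TβRII flox/flox cells (adjusted p = 0.0782) or replicate 3 of TβRII-/- cells (adjusted p = 0.113). Per kilobase of transcript, Tfe3 was the most abundant of the 3 in untreated TβRII flox/flox cells, with 221 normalized counts against 73.8 for Tfeb and 10.3 for Mitf.

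Among the lysosomal genes of the 46 the largest differences between untreated genotypes were those of Ctsl and Npc1, both lower in TβRII-/- cells. Ctsl had 7713, 7576 and 6468 normalized counts in TβRII flox/flox and 4137, 4203 and 3909 in TβRII-/- cells, with a log2 fold change of -0.83 ± 0.07 (SE; adjusted p = 1.31e-12). Npc1 had 3056, 2641 and 2472 against 1558, 1525 and 1529.7, with a log2 fold change of -0.82 ± 0.07 (SE; adjusted p = 9.87e-13). Neither gene's groups overlapped. Lower were also Psap (log2 fold change -0.50), Lipa (-0.49), Lamp2 (-0.43), Cd63 (-0.39), Gusb (-0.33), Glb1 (-0.30), Npc2 (-0.30), Ctsb (-0.30) and Scarb2 (-0.19), and the V-ATPase genes Atp6ap1 (-0.53) and Atp6v0d1 (-0.53). Higher were Ctsd, with 18353, 18759 and 14872 against 27190.4, 27274 and 25066 normalized counts and a log2 fold change of 0.61 ± 0.07 (SE), Ctsa (0.45), Ctsz (0.37), Naglu (0.23), Asah1 (0.16) and the V-ATPase gene Atp6v1a (0.21). The proteases thus differed among themselves, with 3 higher, 2 lower and 1 not called. Lamp1, Mcoln1, Tpp1, Gaa, Hexa, Neu1, Grn, Atp6v1h and Atp6v1b2 did not pass, with means in TβRII-/- and TβRII flox/flox cells of 29399 and 28758, 1471 and 1495, 5594 and 5311, 2665 and 2836, 1957 and 2019, 3237 and 2984, 5659 and 5751, 672 and 621, and 1517 and 1461 normalized counts. Without replicate 3 of TβRII flox/flox cells, 3 of the 23 content and membrane genes were higher and 13 lower, Asah1 (adjusted p = 0.138) and Naglu (0.226) being no longer called. These calls were also lost without replicate 1 of TβRII-/- cells (0.0675 and 0.154), that of Asah1 without replicate 2 (0.0711) and that of Scarb2 without replicate 3 of TβRII-/- cells (0.0511).

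**Figure D4:**
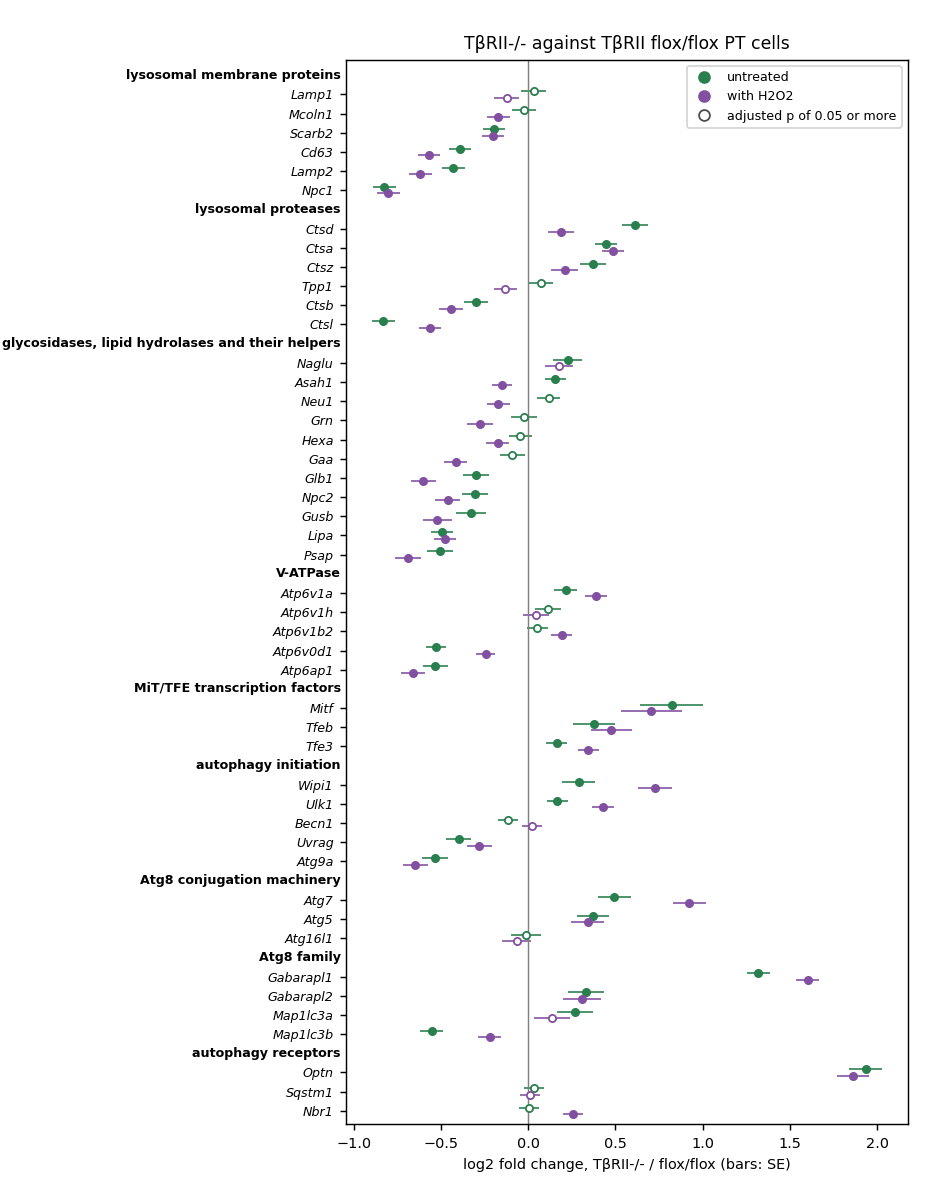
Log2 fold changes between TβRII-/- and TβRII flox/flox cells for the 46 genes, sorted by role, untreated (green) and with H2O2 (purple). Points are edgeR estimates, bars are standard errors, and open points did not pass an adjusted p of 0.05. The 3 MiT/TFE genes lie to the right of 0 in both conditions, Optn lies near 1.9, and 17 of 23 lysosomal content and membrane genes were lower with H2O2.

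With H2O2 on both genotypes, 16 of the 46 genes were higher in TβRII-/- cells and 22 were lower, beside 35.1% and 31.3% of all genes tested (66.4% together). The counts were 5 and 6 at a fold change of at least 1.5 and an unadjusted p under 0.01, beside 16.9% and 12.9% (29.8% together). With H2O2 the summed proximal tubule markers were between 30863 and 33722 normalized counts in TβRII flox/flox cells and between 15870 and 17240 in TβRII-/- cells, and the summed epithelial markers between 20049 and 21430 and between 37283 and 37939. Their part in this comparison was not tested. Of the 23 lysosomal content and membrane genes 3 were higher and 17 lower, with a median log2 fold change of -0.276 against 0.018 over all genes. Npc1 (-0.80), Psap (-0.69), Lamp2 (-0.62) and Glb1 (-0.60) had the lowest log2 fold changes, and the V-ATPase gene Atp6ap1 was lower too (-0.66). Cd63 (-0.57), Ctsl (-0.56), Gusb (-0.52), Lipa (-0.47), Npc2 (-0.46), Ctsb (-0.44), Gaa (-0.42), Grn (-0.28) and Scarb2 (-0.20) were lower as well, and so was Atp6v0d1 (-0.24). Lamp2 had 11295, 11920.4 and 11943 normalized counts in TβRII flox/flox and 7573, 7731 and 7606 in TβRII-/- cells. These ranges were far apart.

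Ctsa was higher in TβRII-/- cells with H2O2 by 0.49 on the log2 scale, Ctsz by 0.21 and Ctsd by 0.19. The call of Ctsd was lost without any 1 of the 3 TβRII flox/flox replicates or TβRII-/- replicate 1 or 3 (adjusted p between 0.0628 and 0.192), and that of Ctsz without TβRII flox/flox replicate 1 or 3 or TβRII-/- replicate 3 (adjusted p between 0.0558 and 0.246), which left 1 of the 23 genes higher instead of 3. The small differences of Mcoln1 (-0.17), Hexa (-0.17), Neu1 (-0.17) and Asah1 (-0.15) each lost their call without TβRII-/- replicate 1, Mcoln1, Hexa and Asah1 also without replicate 2 and Hexa also without TβRII flox/flox replicate 2 (adjusted p between 0.0501 and 0.107). Mitf (49.7, 51.6 and 57.3 against 76.6, 101 and 79.5 normalized counts), Tfeb (232, 186 and 148 against 270.5, 264 and 258) and Tfe3 (1028, 919 and 973 against 1221, 1268 and 1220.2) were again higher in TβRII-/- cells, without overlap. Their log2 fold changes were 0.71, 0.48 and 0.35 (adjusted p = 0.00073, 0.000609 and 1.1e-05). Among autophagy genes Atg7 was higher by 0.92 ± 0.09 (SE) on the log2 scale, with 244, 234 and 234 against 433, 498 and 419 normalized counts. Wipi1 was higher by 0.73, Ulk1 by 0.43, Atg5 by 0.34, Gabarapl2 by 0.31 and Nbr1 by 0.26, and the V-ATPase genes Atp6v1a and Atp6v1b2 by 0.39 and 0.19. Atg9a (-0.65), Uvrag (-0.28) and Map1lc3b (-0.22) were lower. The calls of Atg5, Gabarapl2 and Atp6v1b2 were lost without TβRII flox/flox replicate 2, the latter pair also without TβRII flox/flox replicate 3 or TβRII-/- replicate 2 (adjusted p between 0.0503 and 0.129). Map1lc3a had 283, 224 and 252 against 278, 279 and 277 normalized counts, which overlapped, and a log2 fold change of 0.14 (adjusted p = 0.25). Sqstm1 had 4742, 4251 and 4374 against 4561, 4522 and 4387, and its log2 fold change was 0.01 (adjusted p = 0.876). Lamp1, Tpp1, Naglu, Atp6v1h, Becn1 and Atg16l1 did not pass, with means in TβRII-/- and TβRII flox/flox cells of 33576 and 36552, 7572 and 8282, 930.1 and 822, 620.5 and 602, 1474 and 1451, and 509 and 532 normalized counts.

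Whether the response to H2O2 itself differed between genotypes was tested by the interaction. It was called for 10 of the 46 genes, 6 with a higher and 4 with a lower response in TβRII-/- cells, beside 3.9% and 6.28% of all genes tested (10.2% together). None of the 10 passed a difference of at least 1.5-fold with an unadjusted p under 0.01, beside 0.809% of all genes with a higher and 1.94% with a lower response (2.75% together). Without replicate 3 of untreated TβRII flox/flox cells it was called for 4 with a higher and 3 with a lower response. The summed proximal tubule markers had 21977 to 27976 normalized counts untreated and 30863 to 33722 with H2O2 in TβRII flox/flox cells, against 15044 to 16071 and 15870 to 17240 in TβRII-/- cells, and their part in the interaction was not tested. The 4 genes with a lower response in TβRII-/- cells were lysosomal. For Ctsd (ENSMUST00000151120, chromosome 7 from 142375910 to 142387827) the normalized counts were 18353, 18759 and 14872 untreated and 24771, 25812 and 24365 with H2O2 in TβRII flox/flox cells, and 27190.4, 27274 and 25066 against 28505, 27633 and 29131 in TβRII-/- cells. The first pair of groups was well apart and the second was close, and the log2 difference between responses was -0.43 ± 0.10 (SE; adjusted p = 0.00745). It stayed called in all 19 alternatives tried, with adjusted p values between 0.000382 and 0.0283. Gaa responded by 0.89 in TβRII flox/flox and 0.57 in TβRII-/- cells (log2 difference -0.33), Asah1 by 0.53 and 0.22 (-0.31), and Neu1 had a difference of -0.29.

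The 6 genes with a higher response in TβRII-/- cells were 5 autophagy genes and Atp6v0d1. Wipi1, which fell in TβRII flox/flox cells as given above, had 319, 338 and 341 normalized counts untreated and 310.1, 343 and 276 with H2O2 in TβRII-/- cells, where the groups overlapped. The log2 difference between responses was 0.44 ± 0.14 (SE; adjusted p = 0.0362). Atg7 had 298, 287 and 285 normalized counts untreated and 244, 234 and 234 with H2O2 in TβRII flox/flox cells and 449.7, 356 and 421 against 433, 498 and 419 in TβRII-/- cells, a log2 difference of 0.43 ± 0.13 (SE; adjusted p = 0.0338). Map1lc3b (0.33), Atp6v0d1 (0.28), Gabarapl1 (0.28) and Nbr1 (0.25) followed. Apart from Ctsd, each of these calls was lost in at least 2 of the 12 fits without 1 library. Asah1 lost it in 2 of them, without replicate 1 or 2 of TβRII-/- cells with H2O2 (adjusted p = 0.0508 and 0.0525), Gaa, Map1lc3b and Atp6v0d1 in 5 each, Neu1 in 7, Atg7 in 8, Gabarapl1 and Wipi1 in 9 each and Nbr1 in 10, with adjusted p values up to 0.213. The number called fell from 10 to 2 without replicate 2 of TβRII flox/flox or replicate 1 of TβRII-/- cells with H2O2, to 3 without replicate 2 of TβRII-/- cells with H2O2, to 4 without replicate 1 of untreated TβRII-/- cells and to 5 without untreated replicate 2 of either genotype or replicate 3 of TβRII flox/flox cells with H2O2. With counts summed over all transcripts of a gene it was 3.

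The other genes of the pathway, 166 in 9 lists of which 159 were tested, were counted in the same way. With H2O2, 21% of all genes tested rose and 20.5% fell in TβRII flox/flox cells, against 20.5% and 19.1% in TβRII-/- cells. Between genotypes 33.3% of all genes were higher and 31.4% lower in untreated TβRII-/- cells, and 35.1% and 31.3% with H2O2. In TβRII flox/flox cells 31 of 38 other hydrolases and helpers rose and 0 fell (median log2 fold change 0.465), as did 16 of 21 other membrane proteins and channels with 0 falling (median 0.399). In TβRII-/- cells the hydrolases gave 21 higher and 1 lower (median 0.284) and the membrane proteins 13 higher and 0 lower (median 0.215). Of 16 other autophagy initiation genes 3 rose and 3 fell in TβRII flox/flox cells, of 9 other Atg8 conjugation genes 1 rose and 2 fell, and of 16 genes for fusion of the autophagosome with the lysosome 2 rose and 5 fell. Of 14 other V-ATPase subunits 6 rose and 1 fell, of 14 genes that sort enzymes to the lysosome 5 rose and 2 fell, and of 8 other receptors 5 rose and 1 fell. Of 23 genes of nutrient signalling to mTORC1 at the lysosome 4 rose and 3 fell in TβRII flox/flox cells and 8 rose and 3 fell in TβRII-/- cells. Between genotypes the other hydrolases were lower in TβRII-/- cells in 24 of 38 cases untreated, with 6 higher, and in 27 of 38 with H2O2, with 2 higher. The genes of fusion went the other way, with 11 of 16 higher and 3 lower in untreated cells. Of the 9 other Atg8 conjugation genes 3 were higher and 6 lower in untreated TβRII-/- cells. Without replicate 3 of untreated TβRII flox/flox cells these counts were 9 higher and 3 lower for fusion and 3 higher and 3 lower for conjugation. Without replicate 3 of untreated TβRII flox/flox cells, 25 of 38 other hydrolases and 14 of 21 other membrane proteins rose with H2O2 and 0 of either fell, and between untreated genotypes 25 of 38 hydrolases were lower and 5 higher. The counts under H2O2 that moved by 1.5 times or more without it were those of V-ATPase subunits (4 higher, 0 lower), of fusion (1 higher, 4 lower), of conjugation (1 higher, 1 lower) and of sorting (4 higher, 1 lower).

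**Figure D5:**
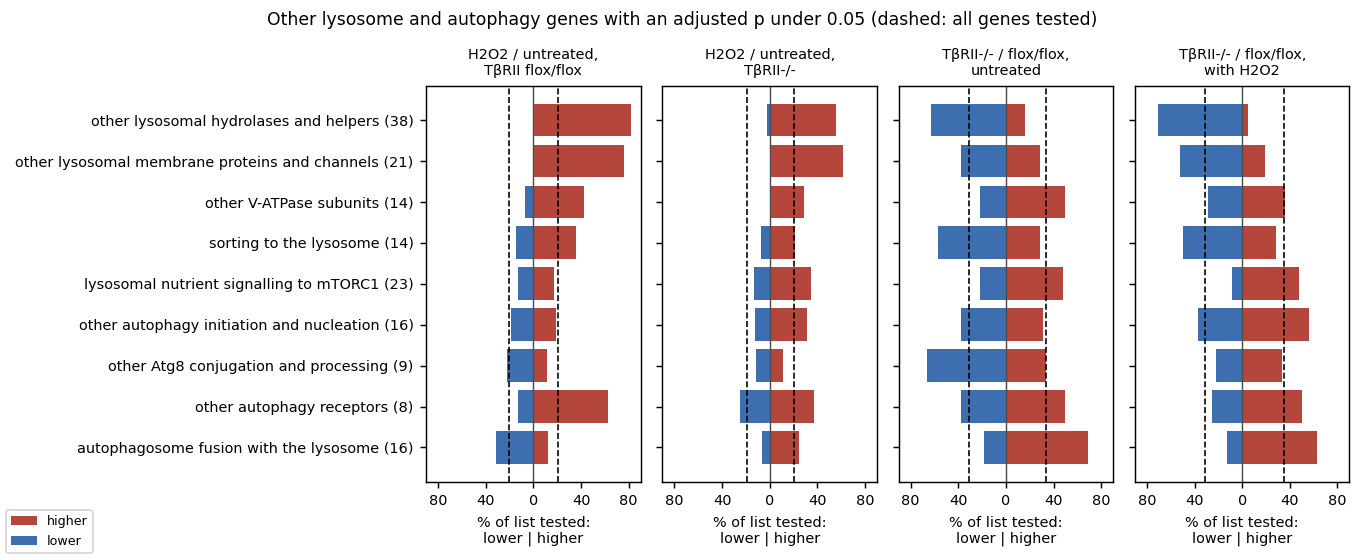
Share of the genes tested in each of 9 further lists that were higher (red, to the right) or lower (blue, to the left) at an adjusted p under 0.05, in 4 comparisons. Numbers in brackets are genes tested, and dashed lines are the shares of all 12971 genes tested. With H2O2 in TβRII flox/flox cells the bars of the hydrolases and of the membrane proteins reach 81.6% and 76.2% higher. In that panel the bars of autophagy initiation and conjugation stay near or inside the dashed lines. Between untreated genotypes conjugation reaches 66.7% lower, and between genotypes with H2O2 initiation reaches 56.2% higher.

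At a fold change of at least 1.5 and an unadjusted p under 0.01, 17 of the 159 genes tested in these lists were higher in untreated TβRII-/- cells. The number lower was 15, beside 15.7% higher and 11.3% lower of all genes (27% together). With H2O2 the counts were 18 and 24, beside 16.9% and 12.9% (29.8% together). Some genes of these lists differed at least 2-fold between genotypes, with adjusted p values under 0.05. Ctsc, the protease that activates granule serine proteases, had 271, 220.3 and 227 normalized counts in untreated TβRII flox/flox cells and 9.41, 9.68 and 8.62 in TβRII-/- cells, a log2 fold change of -4.68 ± 0.20 (SE). Rragd, a GTPase that recruits mTORC1 to the lysosome, had 5.26, 8.9 and 2.15 against 136, 109 and 127 (4.49 ± 0.26), and rose with H2O2 in TβRII-/- cells to 243, 259 and 259 (1.03 ± 0.13). Its relative Rragb was higher by 1.70 untreated and 2.55 with H2O2. Cln3, a lysosomal membrane protein, had 51.5, 37.8 and 38.7 normalized counts in untreated TβRII flox/flox and 256, 216 and 179 in untreated TβRII-/- cells (2.34). The V-ATPase subunit gene Atp6v1c2 was nearly absent in untreated TβRII flox/flox cells, with a mean of 0.722 normalized counts, and had 85.8, 40.7 and 49.8 in TβRII-/- cells. Atg4a, a protease that processes Atg8 proteins, was higher by 1.17 and 1.33 without and with H2O2, whereas Rb1cc1, the scaffold of the Ulk1 complex, was lower in untreated cells (-1.02) and the carboxypeptidase Prcp in both conditions (-1.28 and -1.07). With H2O2 the amidase Aga (-1.30), the cathepsin Ctsf (-1.31) and the chloride transporter Clcn6 (-1.07) were also at least 2-fold lower in TβRII-/- cells, as was the hyaluronidase Hyal2, with a mean of 644 against 1290.2 normalized counts.

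The levels of the 46 genes per kilobase of transcript spanned a wide range. In untreated TβRII flox/flox cells Lamp1 was highest, with 11185 normalized counts per kilobase, followed by Ctsd (8147) and Psap (6053), and Mitf was lowest (10.3). In untreated TβRII-/- cells the order at the top was Ctsd (12464), Lamp1 (11435) and Psap (4269). Among the Atg8 genes Gabarapl1 was highest per kilobase in both, with 974 and 2432, and Map1lc3b followed with 480.0 and 327. These levels depend on the transcript that stands for each gene, which for Tfe3, Mcoln1, Neu1, Cd63, Map1lc3b, Becn1 and Atg16l1 was annotated as one with a retained intron. When the highest protein-coding transcript was used instead, the counts of called genes stayed as given in all 5 comparisons.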

How the data were processed

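RNA of cultured mouse PT cells was sequenced from stranded mRNA libraries. Per the study's methods and the labels, the authors aligned reads with STAR to GRCm38.p6 and counted them with featureCounts of the R package Rsubread. The deposited values were whole-number counts per transcript, 51387170 to 69231661 per library, in which a read could count for several transcripts of a gene. Of 106332 transcripts 104820 matched GENCODE symbols, the rest holding 1.22 to 1.28% of counts. The transcript with the largest count summed over the 12 libraries stood for its gene. Such totals, 15870155 to 20857618, limit precision by counting error, which replicate spread includes.

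edgeR 4.0.16 (R 4.3.3) was run with TMM normalization, filterByExpr and a quasi-likelihood fit of all 12 libraries with 1 mean per group, and p values were adjusted by Benjamini-Hochberg over 12971 genes. Normalized counts are scaled to an effective library of 17351835 counts. The standard error of a log2 fold change was derived from its F statistic. The scripts were tested on simulated data. Alternatives were DESeq2 1.42.0, its size factors in edgeR, other filters, summed transcripts, a fit of only the groups compared, a replicate block, omission of each library and, added after seeing the data, the highest protein-coding transcript. The planned gene-level counts were replaced by this transcript choice, since the files were per transcript.

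The 46 genes, the lists and the tests were chosen with earlier results of these data known. Every one of the 46 genes is accounted for. Values of all libraries are given for those at least 2-fold changed, for the MiT/TFE and Atg8 genes and for Sqstm1, and genes of other lists are named where changed at least 2-fold. Further genes shown by library were chosen after their values were seen. Promoter windows came from RefSeq (GRCm38.p6) and were searched with Python 3.11.15.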

Additional observations from a re-analysis of the deposited data

Results flagged for a closer look

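The response to H2O2 differed between genotypes, by edgeR's quasi-likelihood test of the interaction with Benjamini-Hochberg adjustment over all genes tested, for 10 of the 46 genes. Given as the log2 response in TβRII-/- PT cells minus that in TβRII flox/flox PT cells, the difference was -0.43 for Ctsd (adjusted p = 0.00745), -0.33 for Gaa (0.0293), -0.31 for Asah1 (0.0165) and -0.29 for Neu1 (0.0374). It was 0.44 for Wipi1 (0.0362), 0.43 for Atg7 (0.0338), 0.33 for Map1lc3b (0.0199), 0.28 for Atp6v0d1 (0.0193), 0.28 for Gabarapl1 (0.0429) and 0.25 for Nbr1 (0.0429). All have an absolute value under the 1.5-fold limit of the study.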

How the results depend on the processing

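No called gene among the 46 changed direction under any alternative, and 23 of 29 calls with H2O2 in TβRII flox/flox cells, 20 of 26 in TβRII-/- cells, 26 of 33 between untreated genotypes, 29 of 38 between genotypes with H2O2 and 1 of 10 interactions held under all of them. Counts of called genes moved by less than 1.5 times except where stated here. A fold change of at least 1.5 with an unadjusted p under 0.01 gave 6, 3, 6, 11 and 0 genes in this order, a limit that changes both the p and the minimum size. The interaction count of 10 was 3 with summed transcripts, and 2 to 10 without 1 library; the cause was not tested. Without 1 library the other counts were 26 to 31, 21 to 24, 29 to 32 and 33 to 37. With DESeq2 the 5 counts were 29, 25, 33, 39 and 8. Summed transcripts ended the calls of Naglu (adjusted p = 0.0988) between untreated genotypes, of Atp6v1b2 (0.055), Ctsd (0.0908), Ctsz (0.1) and Gabarapl2 (0.0684) between genotypes with H2O2 and of Atg5 (0.126) with H2O2 in TβRII flox/flox cells. In TβRII-/- cells with H2O2 they ended those of Lamp1 (0.0524), Glb1 (0.0885), Atp6ap1 (0.0798) and Gabarapl1 (0.113). Leaving out the filter ended the calls of Tfe3 (0.0501) between untreated genotypes, Glb1 (0.0588) in TβRII-/- cells and the Nbr1 interaction (0.0547), and fitting only the groups compared ended that of Asah1 (0.0537) between untreated genotypes. DESeq2 ended Glb1 (0.0696) and Atp6ap1 (0.0532) in TβRII-/- cells and the interactions of Atg7 (0.0544) and Wipi1 (0.0593), and its size factors ended Atp6ap1 (0.051) and Gabarapl1 (0.0535) in TβRII-/- cells and the interactions of Nbr1 (0.0593) and Gabarapl1 (0.0577). The replicate block ended Gabarapl1 (0.0617) in TβRII-/- cells and the interactions of Nbr1 (0.0641) and Gabarapl1 (0.0552), and summed transcripts those of Neu1, Atp6v0d1, Nbr1, Gaa, Gabarapl1, Atg7 and Map1lc3b (0.0543 to 0.117). Values near 0 that did not pass the test changed sign. Sqstm1 between genotypes with H2O2 was -0.003 with DESeq2 or its size factors, -0.007 with summed transcripts, -0.0003 with only the groups compared and -0.0497 to 0.0282 without 1 library. Mitf with H2O2 in TβRII flox/flox cells was -0.2583 with summed transcripts. Without 1 library it was -0.0011 to 0.0971, and in TβRII-/- cells -0.2125 to 0.03, while in TβRII flox/flox cells Map1lc3b was -0.0766 to 0.0335, Map1lc3a -0.1255 to 0.088 and Tfeb -0.0329 to 0.2905. Libraries with the same replicate number did not deviate together (r between -0.101 and 0.058, 0 of 18 over 0.1), so the numbers do not pair them. With the replicate number as a block the 5 counts were 30, 25, 33, 39 and 8. A library correlated best with its own number in 9 of 36 cases. The depth of the least abundant genes, such as Mitf with about 50 to 100 normalized counts, limits the size of a change that could be detected.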
